A study of Mus musculus with 6 samples.

Results

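The 10 genes described here belong to the TGF-beta pathway and were measured by RNA-seq in mouse colonic lamina propria (LP) macrophages (MΦs). They are the ligand gene *Tgfb1*, the receptor genes *Tgfbr1* and *Tgfbr2*, the signal transducers *Smad2*, *Smad3* and *Smad4*, the inhibitors *Smad7*, *Ski* and *Skil*, and *Tgfbi*, a gene named for its induction by TGF-beta. They are the rows whose gene symbol is in this set of names, and the rule uses no measured value. All 10 were present among the 14097 genes of the table, and all 10 passed the filter used in each comparison, 50 normalized counts in 1 library or more, which 11067 genes passed. A normalized count is the number of reads on a gene divided by a size factor of its library, so it compares 1 gene between libraries and is not scaled by gene length.

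The study asked how loss of the IL10 receptor changes gut MΦs as young mice grow. P3/P4 MΦs, the LP fraction thought to hold the resident cells, were sorted as CD45+, CD11b+, CD64+ and MHCII+ cells with intermediate CD11c (CD11cint) and without CD103 and Ly6C. They came from *Il10rb*-/- mice, which lack the β chain of the IL10 receptor in every cell and not in MΦs alone, and from *Il10rb*+/- mice, heterozygous controls that keep a working allele. The paper states that this chain is also part of receptors for other cytokines, so the genotypes differ in more than IL10 signalling. All mice were untreated and of the 129SvEv strain, and each genotype gave 1 library at 1 week, 1 at 3 weeks and 1 at 12 weeks of age. At 1 week a library was a pool of 3 to 5 mice by the labels and at the later ages it came from 1 mouse, so pooling and age cannot be told apart, and a difference between genotypes at 1 age has no replicate check. The study's sources differ slightly on the size of these pools. In sorted bulk RNA, fewer cells of a type and less RNA per cell cannot be told apart either.

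The libraries held between 6700337 and 40754971 reads on genes. *Il10rb* had 386 to 2341 reads in the *Il10rb*+/- libraries and 8 to 43 in the *Il10rb*-/- libraries, as their labels state. All 14 markers of resident MΦs passed the filter, with *Cd68* between 9221 and 14743 normalized counts in all 6 libraries. Any single library can satisfy the filter, so passing it does not show a marker in each library. At 12 weeks 10 of the 14 were lower in the *Il10rb*-/- library than in its control and 4 were higher. Among the lower ones, *Mrc1* had 618 against 12185 normalized counts and *Cx3cr1* 906 against 8074. The 1-week *Il10rb*+/- pool had 1123 reads on 4 Y-linked genes against 5 to 46 in the other libraries, and the labels give no sex. The 12-week libraries differed most between genotypes, with 24.6% of genes past 2-fold against 6.96% at 1 week and 4.95% at 3 weeks. The paper reports that *Il10rb*-/- mice develop colitis from around weaning onward, without treatment, and that their heterozygous littermates do not. Genotype and inflammation of the colon therefore cannot be told apart in the ratios at the later ages, above all at 12 weeks. The part of inflammation in these ratios was not tested.

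TGF-beta is secreted in a latent form and, once released, binds the type II receptor TGFBR2, which recruits and phosphorylates the type I receptor TGFBR1. The receptor complex phosphorylates SMAD2 and SMAD3, which join SMAD4, enter the nucleus and act on target genes, while SMAD7 blocks the receptor and SKI and SKIL hold target genes repressed. In the intestine the pathway is known for restraining inflammation and for shaping the differentiation of monocytes into resident MΦs.

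The promoters of *Tgfbr1*, *Tgfbr2* and *Tgfbi* are shown because these genes had the widest differences between genotypes at 12 weeks. Each sequence is the 250 bases before the RefSeq start of the gene (GRCm38.p6), 5′ to 3′ on the strand of the gene, at chr4:47352972-47353221 (+) for *Tgfbr1*, chr9:116175364-116175613 (-) for *Tgfbr2* and chr13:56609336-56609585 (+) for *Tgfbi*. Capitals mark matches, on either strand, to CAGAC (the Smad box, GTCTG on the other strand) and GGGCGG (the GC box, CCGCCC on the other strand), and no matches overlapped.
Tgfbr1: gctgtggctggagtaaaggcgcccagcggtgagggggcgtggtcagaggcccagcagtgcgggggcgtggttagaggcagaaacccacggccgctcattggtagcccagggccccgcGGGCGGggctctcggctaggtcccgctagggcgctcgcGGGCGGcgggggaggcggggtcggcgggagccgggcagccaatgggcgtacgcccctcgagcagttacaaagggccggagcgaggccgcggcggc
Tgfbr2: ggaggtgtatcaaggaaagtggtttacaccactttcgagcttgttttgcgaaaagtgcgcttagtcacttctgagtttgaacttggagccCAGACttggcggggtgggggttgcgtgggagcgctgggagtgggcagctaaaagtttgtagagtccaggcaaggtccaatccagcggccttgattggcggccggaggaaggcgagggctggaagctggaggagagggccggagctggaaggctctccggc
Tgfbi: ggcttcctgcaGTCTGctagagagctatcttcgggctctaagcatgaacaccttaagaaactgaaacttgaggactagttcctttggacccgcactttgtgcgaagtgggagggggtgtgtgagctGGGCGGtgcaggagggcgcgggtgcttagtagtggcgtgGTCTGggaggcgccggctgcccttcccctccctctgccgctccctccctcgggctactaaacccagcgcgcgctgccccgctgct
The *Tgfbr1* window shown held 2 GC boxes and no CAGAC, the *Tgfbr2* window 1 CAGAC and no GC box, and the *Tgfbi* window 2 CAGAC and 1 GC box. None of the 3 windows held TATAAA (the TATA box). Of all 32851 RefSeq promoter windows of this length, 42.2% held CAGAC, 32.7% GGGCGG and 12.4% TATAAA on either strand, so each match is common and is a description, not a binding site. RefSeq lists a further start for *Tgfbr1* (window chr4:47385966-47386215, not shown), which held 1 CAGAC and no GC box and had a GC content of 52.8%. GC content of the windows shown was 74.8% for *Tgfbr1*, 58.4% for *Tgfbr2* and 62.4% for *Tgfbi*, against a median of 52.4% over all windows.

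At 12 weeks both receptor genes were lower and *Tgfbi* was higher in the *Il10rb*-/- library, by 1.93-fold for *Tgfbr1*, 2.16-fold for *Tgfbr2* and 2.06-fold for *Tgfbi*. *Smad7* was 1.60-fold lower and *Ski* 1.36-fold lower there, and the other 5 genes differed by 1.26-fold or less. None of the 10 genes passed 3-fold, the threshold of the study, at any age, beside 3.5% of all genes at 1 week, 1.98% at 3 weeks and 14% at 12 weeks. At the 2-fold threshold 2 of 10 passed at 12 weeks (*Tgfbr2* and *Tgfbi*), beside the 24.6% of all genes given above, and none did at 1 or 3 weeks. The median log2 ratio of the 10 genes (*Il10rb*-/- over *Il10rb*+/-) was -0.15, 0.02 and 0.02 at 1, 3 and 12 weeks, against -0.04, 0.02 and 0.04 for all genes. Values of all 10 genes in the 6 libraries are plotted by age and genotype.

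**Figure D1:**
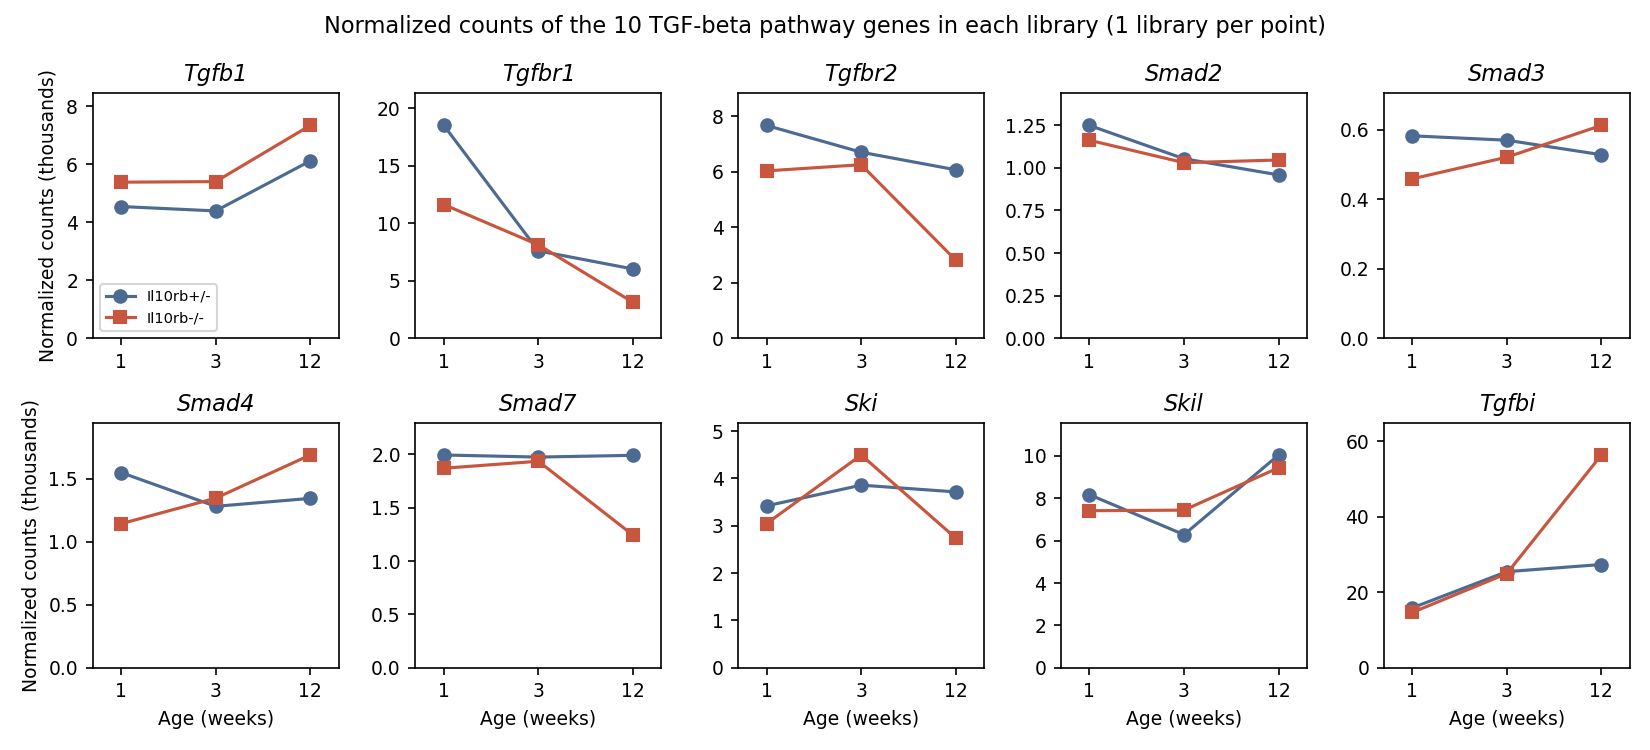
Normalized counts of each gene (y axis, from 0) at 1, 3 and 12 weeks of age (x axis, ages evenly spaced), with 1 point per library, circles for *Il10rb*+/- and squares for *Il10rb*-/-. The receptor genes end at their lowest value and *Tgfbi* at its highest in the 12-week *Il10rb*-/- library.

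*Tgfb1* (ENSMUSG00000002603, chr7:25687002-25705077, plus strand, mm10) encodes TGF-beta 1, the ligand. It had 4542, 4390 and 6115 normalized counts in the *Il10rb*+/- libraries at 1, 3 and 12 weeks, and 5381, 5401 and 7339 in the *Il10rb*-/- libraries. At each age the *Il10rb*-/- library was the higher of the pair, by 1.18-fold, 1.23-fold and 1.20-fold. The log2 ratios were 0.24 (95% interval 0.18 to 0.31), 0.30 (0.22 to 0.38) and 0.26 (0.23 to 0.30). All such intervals on the ratio at 1 age come from the exact (Clopper-Pearson) binomial limits on the share of reads and cover counting error only. Across libraries the groups overlapped, since the 12-week *Il10rb*+/- value exceeded the 1-week and 3-week *Il10rb*-/- values. Both genotypes had their highest *Tgfb1* value at 12 weeks. Scaled to total reads, the 12-week ratio was 0.04.

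*Tgfbr1* (ENSMUSG00000007613, chr4:47353222-47414931, plus strand) encodes the type I receptor kinase and had the widest range of the 10 genes, with a highest value 5.93 times the lowest. Its *Il10rb*+/- values were 18523, 7605 and 6028 normalized counts at 1, 3 and 12 weeks. In *Il10rb*-/- MΦs they were 11636, 8126 and 3125. Both genotypes were lower at each later age. The *Il10rb*-/- library was 1.59-fold lower than its control at 1 week, slightly higher at 3 weeks and lower again at 12 weeks. The log2 ratios were -0.67 (-0.71 to -0.63), 0.10 (0.04 to 0.15) and -0.95 (-0.996 to -0.90). The highest value belonged to the 1-week *Il10rb*+/- pool, the library with Y-linked reads, whose part in it was not tested.

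*Tgfbr2* (ENSMUSG00000032440, chr9:116084293-116175360, minus strand) encodes the type II receptor kinase that binds the ligand. It had 7673, 6707 and 6073 normalized counts in *Il10rb*+/- MΦs and 6035, 6257 and 2813 in *Il10rb*-/- MΦs. The *Il10rb*-/- library was the lower at each age, with log2 ratios of -0.35 (-0.40 to -0.29), -0.10 (-0.16 to -0.04) and -1.11 (-1.16 to -1.06). The other 5 libraries lay between 6035 and 7673, and the 12-week *Il10rb*-/- library stood below them all. Per kilobase of exon, which allows levels of different genes to be compared, *Tgfbr1* was 3.02 times *Tgfbr2* in the 1-week *Il10rb*+/- library and 2.42 times in the 1-week *Il10rb*-/- library. This ratio of levels within a library, which does not depend on scaling between libraries, was 1.42 and 1.63 at 3 weeks and 1.24 and 1.39 at 12 weeks. It was thus lower at 3 and 12 weeks than at 1 week in both genotypes, while at 12 weeks, with both receptors lower in *Il10rb*-/- MΦs, it was close to that of the control.

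*Smad2* (ENSMUSG00000024563, chr18:76241580-76310963, plus strand) and *Smad3* (ENSMUSG00000032402, chr9:63646767-63757994, minus strand) encode the Smads that the receptor phosphorylates. *Smad2* had 1249, 1054 and 959 normalized counts in *Il10rb*+/- MΦs and 1162, 1031 and 1046 in *Il10rb*-/- MΦs. *Smad3* had 582, 569 and 528 in *Il10rb*+/- MΦs and 458, 521 and 612 in *Il10rb*-/- MΦs, with the fewest reads of any member, 234, in the 3-week *Il10rb*+/- library. For both genes the *Il10rb*-/- library was the lower at 1 and 3 weeks and the higher at 12 weeks, although the counting interval of *Smad2* held 0 at 1 and 3 weeks and that of *Smad3* at 3 weeks. The 12-week log2 ratios were 0.13 (0.03 to 0.22) for *Smad2* and 0.21 (0.09 to 0.34) for *Smad3*, and scaled to total reads they turned to -0.10 and -0.01. Per kilobase these genes were the lowest members in each library, *Smad3* at 82.7 to 110 and *Smad2* at 109 to 142 normalized counts per kilobase.

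*Smad4* (ENSMUSG00000024515, chr18:73639009-73703780, minus strand) encodes the partner shared by the receptor-activated Smads. Its values were 1551, 1282 and 1346 normalized counts in *Il10rb*+/- MΦs and 1144, 1347 and 1690 in *Il10rb*-/- MΦs. The *Il10rb*-/- series ran from the lowest value of the 6 libraries at 1 week to the highest at 12 weeks, while the controls had no such order. The log2 ratio was -0.44 (-0.57 to -0.31) at 1 week, 0.07 (-0.07 to 0.22) at 3 weeks and 0.33 (0.25 to 0.41) at 12 weeks.

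*Smad7* (ENSMUSG00000025880, chr18:75367529-75395935, plus strand) encodes the inhibitory Smad, itself a TGF-beta target that acts in negative feedback. It had 1993, 1974 and 1990 normalized counts in *Il10rb*+/- MΦs and 1869, 1935 and 1242 in *Il10rb*-/- MΦs. Its controls were nearly level with age. *Smad7* was the only 1 of the 10 genes whose genotype groups did not overlap, beside 5.64% of all genes, but the nearest values, 1935 and 1974, differed by less than the counting interval at 3 weeks (-0.15 to 0.09 on the log2 scale). At 12 weeks the log2 ratio was -0.68 (-0.76 to -0.60). *Tgfb1*, *Tgfbr2* and *Smad7* were the 3 of 10 genes with the same direction at all 3 ages, beside 34.6% of all genes.

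*Ski* (ENSMUSG00000029050, chr4:155154075-155222592, minus strand) and *Skil* (ENSMUSG00000027660, chr3:31095058-31122577, plus strand) encode related co-repressors that bind Smads. *Ski* had 3420, 3857 and 3714 normalized counts in *Il10rb*+/- MΦs and 3046, 4493 and 2737 in *Il10rb*-/- MΦs. *Skil* had 8169, 6281 and 10039 in *Il10rb*+/- MΦs and 7411, 7439 and 9437 in *Il10rb*-/- MΦs. For both genes the *Il10rb*-/- library was the lower at 1 and 12 weeks and the higher at 3 weeks. The 12-week log2 ratios were -0.44 (-0.49 to -0.39) for *Ski* and -0.09 (-0.12 to -0.06) for *Skil*. *Skil* reached its highest value at 12 weeks in both genotypes. Per kilobase, *Skil* was 1.37 and 1.40 times *Ski* at 1 week, 0.934 and 0.95 times at 3 weeks and 1.55 and 1.98 times at 12 weeks, in *Il10rb*+/- and *Il10rb*-/- MΦs in turn.

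*Tgfbi* (ENSMUSG00000035493, chr13:56609523-56639562, plus strand) encodes an extracellular matrix protein that binds integrins. It had 15868, 25464 and 27361 normalized counts in *Il10rb*+/- MΦs and 14659, 24962 and 56356 in *Il10rb*-/- MΦs. The genotypes were closer to each other at 1 and 3 weeks than at 12 weeks, and the 12-week *Il10rb*-/- library stood above the other 5. The log2 ratio was -0.11 (-0.15 to -0.08) at 1 week, -0.03 (-0.06 to 0.00) at 3 weeks and 1.04 (1.03 to 1.06) at 12 weeks. Scaled to total reads, which moves the 12-week median of all genes from 0.04 to -0.19, the 12-week ratio of *Tgfbi* was 0.82. *Tgfbi* was the most abundant member per kilobase in each library, from 3887 to 14945 normalized counts per kilobase. *Tgfbr1* ranked next in the 4 libraries of 1 and 3 weeks, at 1164 to 2835, and was the fourth and the fifth member at 12 weeks, at 922 in *Il10rb*+/- and 478 in *Il10rb*-/- MΦs.

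The genotype ratios of the members at each age are plotted with their counting intervals. Members below 0 numbered 9 of 10 at 1 week, all but *Tgfb1*, and 5 of 10 at 3 and at 12 weeks. The interval excluded 0 for 8, 5 and 10 of the 10 genes at 1, 3 and 12 weeks, which reflects the depth of the libraries and not the spread between mice.

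**Figure D2:**
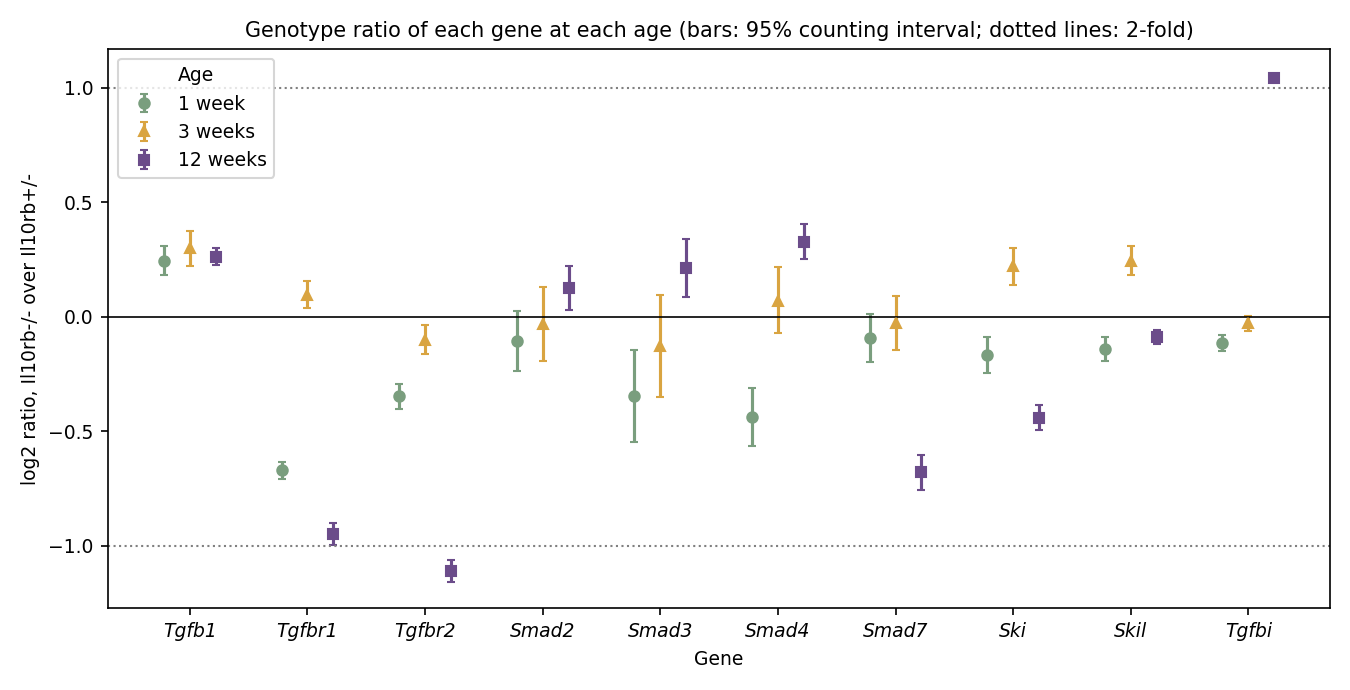
Log2 ratio of *Il10rb*-/- over *Il10rb*+/- normalized counts (y axis) for each gene (x axis) at 1 week (circles), 3 weeks (triangles) and 12 weeks (squares), with 95% counting intervals as bars and 2-fold as dotted lines. *Tgfbr2* at -1.11 and *Tgfbi* at 1.04 pass the dotted lines at 12 weeks, and no gene passes them at 1 or 3 weeks.

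Genotypes could be compared with replicates only by pooling the 3 ages, 3 libraries against 3, in a limma model of genotype and age across all 11067 genes. Its error is how much the genotype difference varied between ages. None of the 10 genes was called at a Benjamini-Hochberg adjusted p under 0.05, beside 0% (0 of 11067) of all genes. At an unadjusted p under 0.05 limma counted 853 genes (7.71%) and none of the 10. The largest estimates were for *Tgfbr2*, at -0.52 on the log2 scale (SE 0.24, limma adjusted p = 0.627, lower in 3 of 3 pairs), and *Tgfbr1*, at -0.51 (SE 0.25, limma adjusted p = 0.627, lower in 2 of 3 pairs). *Tgfb1* was at 0.27 (SE 0.15, limma adjusted p = 0.63, higher in 3 of 3 pairs), and *Tgfbi* at 0.30 (SE 0.29, limma adjusted p = 0.738, higher in 1 of 3 pairs). The other 6 genes lay between -0.27 and 0.00, so a steady genotype difference across ages was not detectable for any member with these 6 libraries.

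Age was compared in the same limma fit, with 2 libraries per age, 1 of each genotype. *Tgfbr1* fell from 1 to 12 weeks by 1.76 on the log2 scale (SE 0.30, 95% interval -2.51 to -1.01, Benjamini-Hochberg adjusted p = 0.0351, lower in both genotypes). It was 3.07-fold lower at 12 than at 1 week in *Il10rb*+/- and 3.72-fold lower in *Il10rb*-/- MΦs. *Tgfbr1* was the 1 of 10 genes called in this comparison, beside 7.25% of all genes. The call was lost without the 1-week *Il10rb*+/- library (limma adjusted p = 0.0943) and without the 1-week *Il10rb*-/- library (limma adjusted p = 0.0834), and the adjusted p lay between 8.16e-05 and 0.0943 over all alternatives. Most of the difference lay between 1 and 3 weeks in *Il10rb*+/- MΦs, with log2 ratios of -1.28 then -0.34, and between 3 and 12 weeks in *Il10rb*-/- MΦs, with -0.52 then -1.38. The difference between these courses was not tested.

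*Tgfbi* was 1.36 higher on the log2 scale at 12 than at 1 week (SE 0.36, limma adjusted p = 0.0766, higher in both genotypes), which did not pass the threshold. Its log2 ratio of 12 over 1 week was 0.79 in *Il10rb*+/- and 1.94 in *Il10rb*-/- MΦs, and between 3 and 12 weeks it was 0.10 and 1.17. *Tgfbr2* was at -0.72 (SE 0.29, limma adjusted p = 0.164) and *Tgfb1* at 0.44 (SE 0.19, limma adjusted p = 0.18). Without the 12-week *Il10rb*+/- library *Tgfbr2* (limma adjusted p = 0.00242) and *Tgfbi* (limma adjusted p = 0.000243) passed the threshold, and then 3 of 10 genes did. Between 1 and 3 weeks, and between 3 and 12 weeks, limma called none of the 10 genes, beside 0.0181% and 0.0271% of all genes. At an unadjusted p under 0.05 there was 1 of the 10 genes in each, of 957 and 2261 genes in all. Scaling to total reads moves the median of all genes from 1 to 12 weeks to -0.39 in *Il10rb*+/- and -0.55 in *Il10rb*-/- MΦs, and on that scale the direction from 1 to 12 weeks turned for *Tgfb1*, *Smad3*, *Smad4* and *Skil*.

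**Figure D3:**
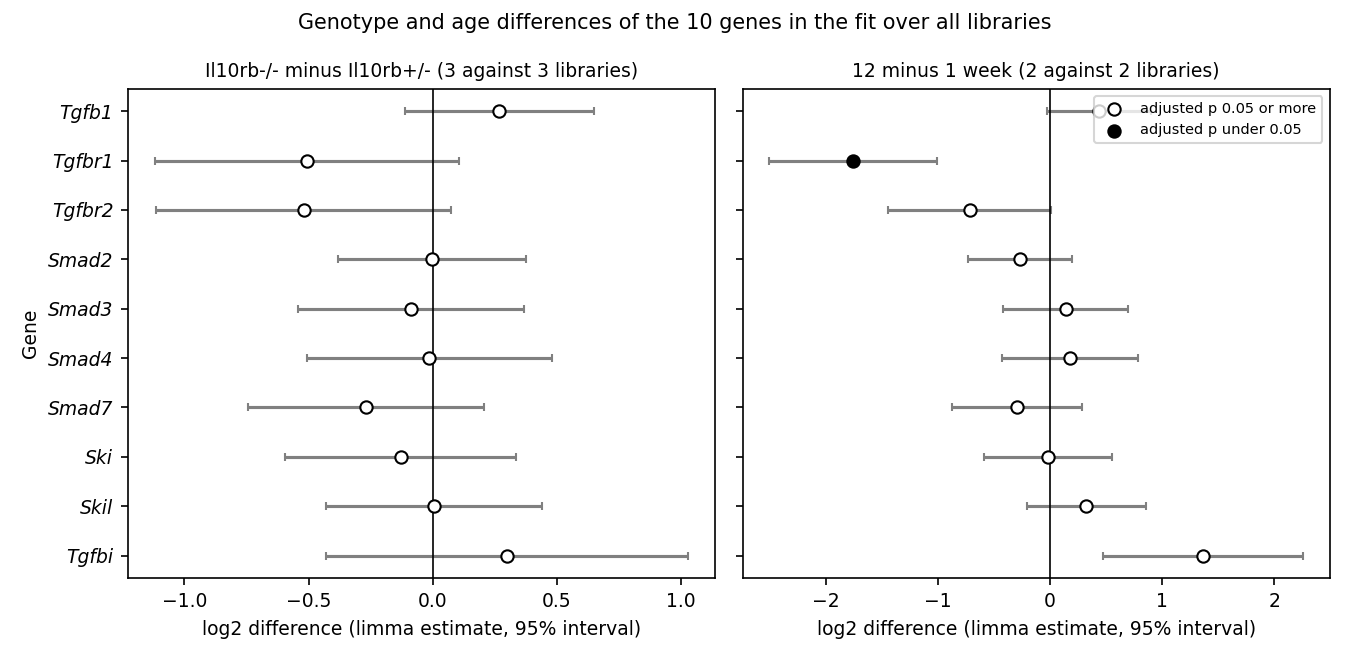
Limma estimates on the log2 scale (x axis) with 95% intervals for each gene (y axis), for genotype across 3 ages (left) and for 12 against 1 week across both genotypes (right), filled where the adjusted p was under 0.05. *Tgfbr1* at 12 against 1 week, at -1.76, is the only filled point.

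The other genes of the pathway were taken from 6 lists of 77 genes, of which 73 were in the table and 60 passed the filter. In the genotype fit limma called none of the 60 (lowest adjusted p = 0.519, for *Inhba*). Past 3-fold were 5 of 60 (8.33%) at 1 week, 2 (3.33%) at 3 weeks and 15 (25%) at 12 weeks. The shares of all genes were 3.5%, 1.98% and 14%. Of these, *Ltbp4*, *Bmp4* and *Ctgf* at 1 week and *Tgfbr3* at 3 weeks had 11 reads or fewer in each library of that age. At 12 weeks 3 were higher and 12 lower in *Il10rb*-/- MΦs, beside 4.03% and 9.99% of all genes. The same shares of all genes apply to the 3-fold counts by list that follow. *Tgfb2*, *Tgfbr3* and *Bmp4*, all among the lower genes, passed the filter only through the 12-week *Il10rb*+/- library. Their direction at 12 weeks was therefore largely set by the filter. The median log2 ratio of the 60 genes was -0.11, 0.01 and -0.20 at 1, 3 and 12 weeks. The ratios at 12 weeks are plotted by list.

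**Figure D4:**
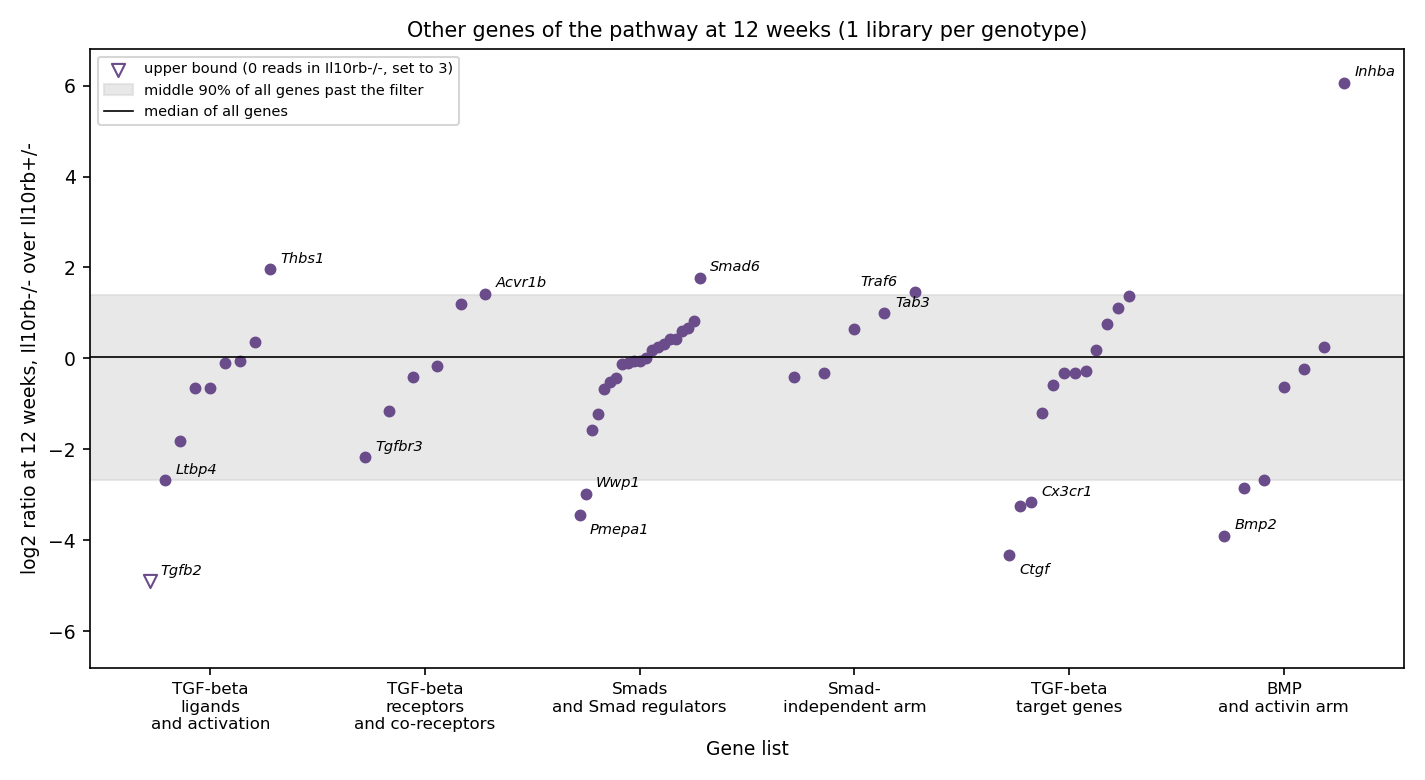
Log2 ratio of *Il10rb*-/- over *Il10rb*+/- at 12 weeks (y axis) for the 60 other pathway genes by list (x axis). Each gene has 1 point, and the middle 90% of all genes (-2.67 to 1.39) is shaded. The open triangle is a gene with 0 reads in *Il10rb*-/- MΦs, drawn with the 0 set to 3 reads. *Inhba* lies far above the band, *Thbs1*, *Smad6*, *Traf6* and *Acvr1b* lie above it by less, and genes of 4 lists lie below it.

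Ligand and activation genes counted 1 of 9 past 3-fold higher and 3 lower at 12 weeks. *Thbs1* encodes thrombospondin 1, which can activate latent TGF-beta, and was singled out after its values were seen. It had 15219, 29085 and 35157 normalized counts in *Il10rb*+/- MΦs and 43043, 42900 and 137739 in *Il10rb*-/- MΦs. All 3 *Il10rb*-/- values lay above all 3 controls, beside 5.64% of all genes without overlap in either direction. Limma did not call it (log2 difference 1.34, adjusted p = 0.627). *Tgfb2*, another TGF-beta ligand, had 120 and 0 reads at 12 weeks in *Il10rb*+/- and *Il10rb*-/- MΦs. That is 29.7-fold lower with the 0 set to 3 reads in that library, and the counting interval of the log2 ratio ended at -4.57. *Ltbp4*, which encodes a latent TGF-beta binding protein, was 6.43-fold lower at 12 weeks. At 1 week its log2 ratio of 2.47 (0.55 to 4.95) came from 3 and 11 reads. *Ltbp3*, of the same family, was the remaining gene past 3-fold lower.

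Among the 6 other receptor and co-receptor genes 1 was past 3-fold, *Tgfbr3*, the co-receptor betaglycan. This gene passed the filter only through the 12-week *Il10rb*+/- library. *Tgfbr3* had 109 and 18 reads at 12 weeks (log2 ratio -2.17, -2.98 to -1.44), 5 and 2 reads at 3 weeks (-2.79, -6.18 to -0.18) and no reads at 1 week. *Acvr1b*, an activin type I receptor, was 2.69-fold higher at 12 weeks.

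Of 21 Smads and Smad regulators 1 was past 3-fold higher and 2 lower at 12 weeks. *Pmepa1* is a target and feedback inhibitor of TGF-beta signalling. It had 3512, 1703 and 1628 normalized counts in *Il10rb*+/- MΦs and 2545, 1326 and 149 in *Il10rb*-/- MΦs, and was 10.9-fold lower at 12 weeks. *Wwp1*, a ubiquitin ligase that acts on receptors and Smads, had 1511, 2341 and 1901 normalized counts in the controls and 1012, 1937 and 242 in *Il10rb*-/- MΦs, 7.86-fold lower at 12 weeks. *Smad6*, the other inhibitory Smad, was 3.42-fold higher at 12 weeks, the opposite side from *Smad7*. In the Smad-independent arm none of 5 genes passed 3-fold, with *Traf6*, an adaptor ubiquitin ligase, 2.73-fold higher at 12 weeks and *Tab3* at log2 ratios of -0.99 at 1 week and 0.99 at 12 weeks.

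Of 12 target genes 4 were higher and 8 lower at 12 weeks, with 3 past 3-fold lower and none past 3-fold higher. The higher genes were *Cdkn1a*, which encodes a cell cycle inhibitor (log2 ratio 1.36), *Bhlhe40* (1.12), *Id2* (0.75) and *Id3* (0.18), named after their values were seen. *Ctgf* (*Ccn2*), a matricellular protein gene, had 6, 14 and 271 reads in the controls and 1, 57 and 10 in *Il10rb*-/- MΦs, and was 20.1-fold lower at 12 weeks. *Cx3cr1*, the chemokine receptor of resident gut MΦs, had 20086, 15952 and 8074 normalized counts in the controls and 16857, 10577 and 906 in *Il10rb*-/- MΦs, 8.91-fold lower at 12 weeks. *Cx3cr1* is also a member of the resident MΦ marker list.

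In the BMP and activin arm 1 of 7 genes was past 3-fold higher and 3 were lower at 12 weeks. *Inhba*, which encodes the activin A subunit, had 119, 87.6 and 434 normalized counts in *Il10rb*+/- MΦs and 593, 1520 and 29090 in *Il10rb*-/- MΦs. The *Il10rb*-/- values all lay above the controls, beside 5.64% of all genes without overlap in either direction. Of the 60 genes, *Thbs1* and *Smad6* were also higher without overlap, and *Acvr1*, *Smurf2* and *Bmpr2* were lower without overlap. The log2 ratio of *Inhba* was 2.32 at 1 week, 4.12 at 3 weeks and 6.07 at 12 weeks, and limma estimated 4.16 (adjusted p = 0.519). *Inhba* was the only gene of the 60 past 3-fold in the same direction at all 3 ages. *Bmp2*, a BMP ligand, had 423, 523 and 1062 normalized counts in the controls and 265, 453 and 71.3 in *Il10rb*-/- MΦs, 14.9-fold lower at 12 weeks.

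Markers of other cell types moved at 12 weeks as well. The summed level of 6 fibroblast markers was 3927 normalized counts in the 12-week *Il10rb*+/- library and 327 in the 12-week *Il10rb*-/- library, with all 6 lower, and that of 5 endothelial markers was 2209 and 903, again with all lower. No fibroblast or endothelial marker was at 0 reads in any library, and over the other 4 libraries the sums lay between 159 and 2930 and between 509 and 1027. Fibroblasts or endothelial cells are known to express *Ctgf*, *Bmp2*, *Tgfb2*, *Tgfbr3* and *Ltbp4*. The sort selected on CD45, CD11b and CD64, and the part of such cells in the values of these genes was not tested. Of 6 monocyte markers 5 were higher at 12 weeks, with sums of 19288 and 35541 (4990 to 28219 in the other libraries), and *Ly6c2*, whose product the sort excluded, had 143 and 2611 normalized counts. Resident MΦ markers were lower for 10 of 14 at 12 weeks and higher for 4, with sums of 573429 and 528765. Most of both sums came from *H2-Ab1*, which was among the higher markers (324510 and 398482). The middle value of the 14 log2 ratios was -1.43, so the near-equal sums do not describe most of these markers. Among them *Mrc1* had 12185 and 618 normalized counts while *Csf1r* had 47225 and 46878. Neutrophil markers were higher for 6 of 6, with sums of 1812 and 12188. The part of a different cell mixture in the 12-week ratios of *Tgfbr1*, *Tgfbr2*, *Smad7* and *Tgfbi* was not tested.

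Likeness to 2 members was measured by Pearson's r of log2(normalized count + 1) over the 6 libraries, as a description without a test. For *Tgfbr1*, the member with the widest range, the most similar genes were *Fbxl4* (r = 0.999), *Gpr157* (r = 0.997) and *Gtf2a1* (r = 0.995), and 283 genes reached 0.95 or more. *Fbxl4* had 477, 270 and 235 normalized counts in *Il10rb*+/- and 352, 268 and 153 in *Il10rb*-/- MΦs, the same order of libraries as *Tgfbr1* but for the close 3-week values. For *Tgfb1* they were *Gpx2* (r = 0.998, with 0 reads in 2 libraries), *Nt5dc3* (r = 0.996) and *Bcl2a1a* (r = 0.996, a gene with near-identical copies whose reads are uncertain), and 208 genes reached 0.95. *Nt5dc3* had 86.3, 87.6 and 160 normalized counts in the controls and 120, 128 and 220 in *Il10rb*-/- MΦs. With 6 libraries that share their ages and genotypes, such values are reached by many genes.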

How the data were processed

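RNA was measured in 6 libraries of sorted colonic MΦs, each labelled with its genotype and age. The deposited table holds a normalized signal per gene: the authors trimmed reads with Trim Galore, aligned them with TopHat (default settings, mm10), counted them with HTSeq, scaled libraries by DESeq size factors and showed 0 as 1. Versions, the gene annotation and the strand setting are not given in the sources used here, so reads of overlapping genes or near-identical copies are uncertain. No other gene overlaps the exons of the 10 members in the GENCODE annotation of GRCm38. Each value other than 1 was a whole multiple (100% within 0.01 reads) of a step of 0.473 to 2.43 normalized counts per read, which gave the reads, and 1 was taken as 0 reads. A count model, planned for the case of raw counts, was not run, since the deposited values are scaled and zeros are replaced. The reads worked back from them would have allowed one.

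Log2 ratios were taken on normalized counts, with exact Clopper-Pearson 95% intervals that cover counting error only, since PCR reads without molecular identifiers are not independent molecules. A fold against 0 reads was set to 3 reads in that library. The fit used limma 3.58.1 (R 4.3.3) on log2(value + 1) with genotype and age as terms, empirical Bayes moderation with a mean-variance trend, 2 residual degrees of freedom and Benjamini-Hochberg adjustment over 11067 genes. The age term pairs the libraries of 1 age by label. Figures were drawn with matplotlib 3.10.9, and all else ran in Python 3.11.15 (pandas 2.3.3, scipy 1.17.1 and numpy 2.4.6). The fit and intervals were tested on simulated data. There the genotype effect was set the same at each age, so the fit was not checked for effects that change with age. Levels per kilobase used merged exons.

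The members and lists were chosen with earlier results of these data known. Other pathway genes were named where called, past 3-fold the same way at 2 or more ages, or among the 2 largest 12-week ratios of their list. *Thbs1*, *Smad6*, *Cx3cr1*, *Ltbp3*, *Cdkn1a*, *Bhlhe40*, *Id2*, *Id3*, *Acvr1*, *Smurf2*, *Bmpr2* and *Bmp4* were named after their values were seen. Alternatives changed the scaling (TMM, computed on the reads, or total reads), the pseudocount (10), the filter (none, or 50 in each library), the age term, the threshold (2-fold) and the libraries used. RefSeq promoter windows were read for 6 of the 10 members. The values of 1 gene picked by the naming rule are not reported here.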

Additional observations from a re-analysis of the deposited data

Results flagged for a closer look

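For 6 of the 10 genes the counting intervals of the genotype log2 ratio (*Il10rb*-/- over *Il10rb*+/-) lay on opposite sides of 0 at different ages. With 1 library per genotype and age, these differences between ages were not tested, and the intervals cover counting error only. The share of all genes with such opposite intervals was not computed, so the count is not read as particular to these genes. Of all genes, 34.6% had ratios in the same direction at all 3 ages, whatever their intervals.

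*Tgfbr1* was at 0.10 at 3 weeks and at -0.67 and -0.95 at 1 and 12 weeks. *Smad3* was at -0.34 at 1 week and 0.21 at 12 weeks, and *Smad4* at -0.44 and 0.33. *Ski* was at -0.17, 0.22 and -0.44 at 1, 3 and 12 weeks, and *Skil* at -0.14, 0.24 and -0.089. *Tgfbi* was at -0.11 at 1 week and 1.04 at 12 weeks.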

How the results depend on the processing

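With 3 libraries per genotype and 2 per age, limma could call only large and steady differences, and a ratio at 1 age is 1 library against 1. The count tests planned for raw counts were not run. The genotype fit called none of the 10 members under any alternative. Over all genes it called 0, against 1 with a pseudocount of 10, 1 without the age term that pairs the libraries of an age (no block), and 3 to 61 when the pair of 1 age was left out (20 without 1 week, 3 without 3 weeks, 61 without 12 weeks). Genotype estimates that turned in sign when 1 age was left out ranged from -0.068 to 0.047 for *Smad2*, -0.24 to 0.042 for *Smad3*, -0.18 to 0.20 for *Smad4*, -0.30 to 0.027 for *Ski*, -0.11 to 0.077 for *Skil* and -0.072 to 0.51 for *Tgfbi*. *Skil* also turned with TMM (-0.0062) and total reads (-0.083). The 12-week ratios of *Smad2* and *Smad3* turned to -0.095 and -0.0071 with total reads. From 1 to 12 weeks 1 member was called, against 2 with total reads (*Tgfbr1* and *Smad2*) and 0 to 3 when 1 library was left out, an alternative chosen after seeing the data that assumes a lone library to vary like the others. From 1 to 3 weeks the leave-one-out counts were 0 to 1 and from 3 to 12 weeks 0 to 3. Changes from 1 to 12 weeks that turned with total reads were *Tgfb1* (-0.051), *Smad3* (-0.35), *Smad4* (-0.31) and *Skil* (-0.17), and those that turned without a library ranged from -0.088 to 0.36 for *Smad3*, -0.14 to 0.50 for *Smad4*, -0.60 to 0.014 for *Smad7* and -0.25 to 0.22 for *Ski*. The cause of these turns was not tested. With the 2-fold threshold 2 members passed at 12 weeks. Other pathway genes past 3-fold went from 5 to 2 at 1 week and from 2 to 1 at 3 weeks with a pseudocount of 10, with the same counts, 2 and 1, at 50 normalized counts in each library, and at 12 weeks from 15 to 23 with no filter and to 10 with 50 in each library.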

Other observations

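At 1 week the 6 fibroblast markers summed to 159 normalized counts in the *Il10rb*+/- library and 1140 in the *Il10rb*-/- library, with 6 of 6 higher, and at 3 weeks to 2808 and 2930. At 12 weeks 6 B and plasma cell markers summed to 17550 and 1906 in *Il10rb*+/- and *Il10rb*-/- MΦs, 6 dendritic cell markers to 10831 and 39828, nearly all from *Ccr7* (10331 and 38707), 9 epithelial markers to 842 and 1898, and 5 T cell markers to 942 and 767, where *Cd2* was lower (748 and 175) and the other 4 were higher. Eosinophil markers were lower in *Il10rb*-/- MΦs at 12 weeks for 3 of 3. *Lrrc32*, which encodes GARP, an anchor of latent TGF-beta, had 86.3, 73.0 and 335 normalized counts in *Il10rb*+/- MΦs and 184, 164 and 320 in *Il10rb*-/- MΦs, with log2 ratios of 1.09, 1.16 and -0.07. *Nrros*, which anchors latent TGF-beta on myeloid cells, had 5782, 7977 and 8264 in the controls and 6198, 8141 and 10598 in *Il10rb*-/- MΦs. *Bambi*, a pseudoreceptor that dampens signalling, had log2 ratios of 0.22, 0.17 and 1.19 at 1, 3 and 12 weeks, and *Klf10*, an early TGF-beta target, had -0.02, -0.34 and -1.19. All 4 genes were chosen after their values were seen.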
